A study of Mus musculus with 4 samples.

Results

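The genes described here are those of the synaptic vesicle and of the SNARE fusion machinery, chosen by their symbols: the syntaxins (Stx), the synaptotagmins (Syt), the VAMPs 1 to 8, the SNAP-25 family and *Snap91*, the complexins (Cplx), the RIMs, the synapsins (Syn) and the neurexins (Nrxn). The symbols matched 58 of the 55602 genes in the table of bulk RNA-seq counts and 57 of the 54750 genes in the table of allele-specific counts. The cells were JB1, a male hybrid line of mouse embryonic stem cells (ESCs) with a JF1 mother and a C57BL/6 (B6) father, either wild-type or *Zfp57*-/-, with 2 libraries of each genotype. Both genotypes were grown in the differentiation medium DDM, received 1 µM cyclopamine, an inhibitor of Hedgehog signalling, from day 2 to day 10, and were harvested at day 12 as neural precursors. ZFP57 is a zinc finger protein that keeps DNA methylation at imprinting control regions. The libraries of a genotype are labelled as biological duplicates of cultures from 1 ESC line per genotype, and the number of clones behind the mutant line is not given in the sources used here. P-values therefore measure the spread between these cultures.

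Transmitter release is the fusion of a vesicle with the plasma membrane. A vesicle SNARE (a VAMP) pairs with a syntaxin and a SNAP-25 protein on the target membrane, and the zippering of this complex drives fusion. In neurons *Stx1a*, *Snap25* and *Vamp2* take part in the fusion complex, synaptotagmins sense calcium, complexins clamp and promote the complex, RIMs hold vesicles at the active zone, synapsins tether the vesicle pool and neurexins connect the presynaptic membrane to the postsynaptic cell. Other syntaxins, SNAP and VAMP proteins serve fusion within the endosomal, Golgi and secretory pathways of all cells.

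The bulk libraries held between 7663520 and 10337082 counts, and allelic reads amounted to between 36.1% and 37.0% of them. *Zfp57* itself had 392 and 249 counts in wild-type against 158 and 144 in *Zfp57*-/- libraries (log2 fold change -1.19, standard error 0.32, edgeR adjusted p = 0.0225), so that its RNA was reduced and not absent. The markers of neural progenitors fitted the label of the wild-type cells, with 1964 and 2140 CPM (counts scaled to a library of the same size) summed over 10 genes in wild-type against 1244 and 1255 in *Zfp57*-/- libraries, and 8 of the 10 were lower in *Zfp57*-/- cells. Over 8 pluripotency markers the sum was 4.95 and 8.50 CPM in wild-type against 1309 and 1150 in *Zfp57*-/- libraries, and all 8 were higher in *Zfp57*-/- cells, with *Nanog* at 0 counts in both wild-type libraries. The progenitor genes with the smallest adjusted p were *Hes5* and *Msi1*, and the pluripotency genes *Tdgf1*, *Klf2*, *Pou5f1* and *Esrrb* shared the smallest of their list. Endoderm markers had 1 of 8 higher, *Apoa2*, with 3 and 4 counts in wild-type against 49 and 37 in *Zfp57*-/- libraries. Mesoderm and endothelium markers had 4 of 6 higher (led by *T* and *Pecam1*) and 1 lower (*Kdr*). Glial markers had 2 of 8 higher (*Olig1* and *Olig2*) and 3 lower (led by *Mbp* and *Aqp4*). Over all genes tested 13% were higher and 14.6% lower, so that the endoderm count lay near the share over all genes.

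Of the 58 genes, 50 had more than 8 counts over the 4 libraries and entered edgeR's quasi-likelihood comparison of the genotypes, at a Benjamini-Hochberg adjusted p of 0.05 over all 19995 genes tested. In *Zfp57*-/- cells 21 were lower, 4 were higher and 25 did not pass the threshold. Over all genes tested 14.6% were lower and 13% higher, while the shares among the tested genes of vesicle fusion were 42% and 8%. Their median log2 fold change (*Zfp57*-/- over wild-type) was -0.99, against -0.01 over all genes tested. Both wild-type libraries lay above both *Zfp57*-/- libraries for 33 of the 50 genes, against 32.6% of all genes, and both *Zfp57*-/- libraries lay above both wild-type libraries for 8, against 33.7% of all genes. Together the 58 genes took 0.155% and 0.154% of the counts in wild-type against 0.102% and 0.100% in *Zfp57*-/- libraries. A lower level in bulk RNA can come from fewer cells of a type or from less RNA in each cell, and these cannot be told apart here.

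**Figure D1:**
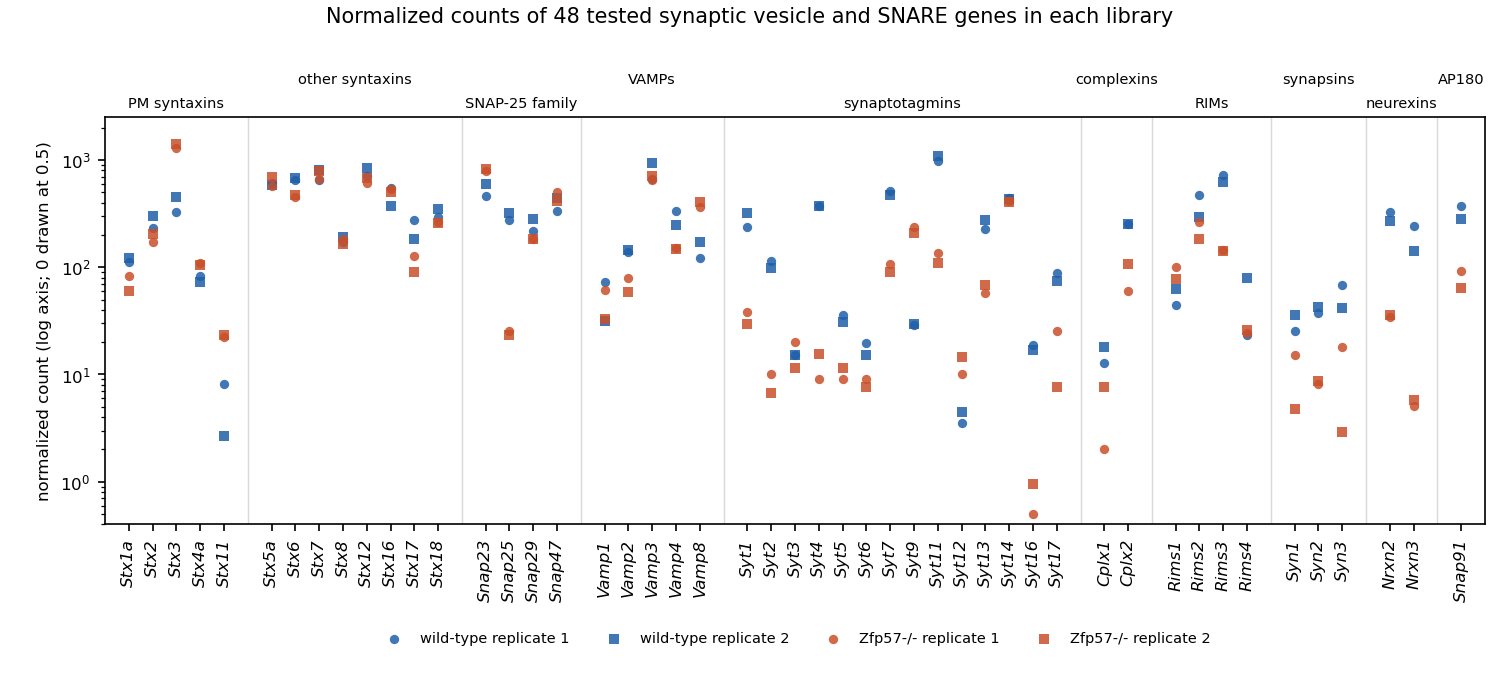
Normalized count (log axis) of 48 of the 50 tested genes in the 2 wild-type (blue) and the 2 Zfp57-/- (orange) libraries, ordered by role, with circles for replicate 1, squares for replicate 2 and a count of 0 drawn at 0.5. The orange points lie about 10-fold or more below the blue ones for *Snap25*, *Syt2*, *Syt4* and *Nrxn3*, and above them for *Stx3*, *Vamp8* and *Syt9*.

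Among the families, the synapsins had a median log2 fold change of -2.23 and the synaptotagmins of -2.15, and *Snap25* fell by 3.63 on the same scale. Over 12 markers of neurons, none of them at 0 counts in a genotype, 11 were lower in *Zfp57*-/- cells, led by *Dcx* (log2 fold change -6.42) and *Map2* (-4.23), and their summed level was 1953 and 2663 CPM in wild-type against 327 and 276 in *Zfp57*-/- libraries. The part that the number of neurons had in the lower levels described here was not tested. Over 6 epithelial markers, all higher in *Zfp57*-/- cells with *Krt18* and *Cdh1* leading, the sum was 313 and 461 CPM in wild-type against 1572 and 1874 in *Zfp57*-/- libraries. Their part, and that of the pluripotency marker RNA, in the 4 higher levels was not tested.

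The promoter sequences of 6 genes, some that rose and some that fell, are shown as examples chosen by hand. RefSeq promoter windows (GRCm38.p6) were found for 41 of the 58 genes. For *Stx3*, *Vamp8* and *Syt9*, which were higher in *Zfp57*-/- cells, and for *Syt1*, *Snap91* and *Stx17*, which were lower, the 250 bases before the start of transcription are given from 5′ to 3′, with each hexamer of the motif that ZFP57 binds when its CG is methylated in capitals. The motif has 2 forms, TGCCGC, which reads GCGGCA on the other strand, as well as GGCCGC, which reads GCGGCC there. Where hexamers overlap, as GGCCGC often does with its other strand, 1 run of capitals covers them.
Stx3: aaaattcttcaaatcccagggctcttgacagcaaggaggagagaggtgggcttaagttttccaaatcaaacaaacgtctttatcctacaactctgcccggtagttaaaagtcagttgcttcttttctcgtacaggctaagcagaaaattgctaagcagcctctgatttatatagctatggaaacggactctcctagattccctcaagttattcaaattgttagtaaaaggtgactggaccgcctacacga
Vamp8: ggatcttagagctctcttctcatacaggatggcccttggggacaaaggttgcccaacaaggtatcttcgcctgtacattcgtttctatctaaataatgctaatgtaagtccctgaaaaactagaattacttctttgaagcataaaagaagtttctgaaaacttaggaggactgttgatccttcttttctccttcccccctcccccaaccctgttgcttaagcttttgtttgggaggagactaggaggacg
Syt9: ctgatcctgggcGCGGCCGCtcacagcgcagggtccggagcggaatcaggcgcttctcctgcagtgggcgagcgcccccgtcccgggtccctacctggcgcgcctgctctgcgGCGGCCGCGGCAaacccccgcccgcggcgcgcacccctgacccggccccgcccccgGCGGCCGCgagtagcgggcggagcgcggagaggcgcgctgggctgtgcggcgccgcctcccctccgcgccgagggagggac
Syt1: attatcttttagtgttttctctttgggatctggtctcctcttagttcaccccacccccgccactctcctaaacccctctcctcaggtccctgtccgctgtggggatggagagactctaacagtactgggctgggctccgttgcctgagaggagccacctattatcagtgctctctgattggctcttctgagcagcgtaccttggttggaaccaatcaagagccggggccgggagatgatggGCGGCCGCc
Snap91: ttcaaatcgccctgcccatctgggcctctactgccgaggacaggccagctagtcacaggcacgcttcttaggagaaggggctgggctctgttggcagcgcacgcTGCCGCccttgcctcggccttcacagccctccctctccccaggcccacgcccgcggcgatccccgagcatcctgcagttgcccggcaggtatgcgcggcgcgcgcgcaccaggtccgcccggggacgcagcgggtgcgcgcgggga
Stx17: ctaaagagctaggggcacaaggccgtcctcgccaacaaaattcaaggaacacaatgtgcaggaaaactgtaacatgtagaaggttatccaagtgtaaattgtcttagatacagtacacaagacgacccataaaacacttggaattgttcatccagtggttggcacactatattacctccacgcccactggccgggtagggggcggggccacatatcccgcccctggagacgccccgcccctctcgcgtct
The windows lie at chr19:11819404-11819653 on the minus strand, chr6:72390668-72390917 on the minus strand, chr7:107370540-107370789 on the plus strand, chr10:109010976-109011225 on the minus strand, chr9:86880709-86880958 on the minus strand and chr4:48124669-48124918 on the plus strand, in the order given. The window of *Syt9* held 40 CG dinucleotides and that of *Snap91* 26, while those of *Stx3*, *Vamp8*, *Syt1* and *Stx17* held 6, 3, 8 and 11. The median over all 32851 windows in the table was 6. Among the members with a window, the median number of CG dinucleotides was 11.5 for the 4 higher, 11 for 11 lower and 16 for 20 genes that did not pass the threshold, so that CG-poor and CG-rich windows occurred in each group. One or both forms of the hexamer, searched on both strands, occurred in 17 of the 55 windows of the members, or 30.9%, against 21.6% of all windows in the table. TGCCGC occurred in 8 of them, or 14.5% against 8.68%, and GGCCGC in 13, or 23.6% against 16.1%. By gene, 16 of the 41 held either form. They were *Syt9* of the higher genes and *Syt1*, *Syt2*, *Syt16*, *Rims3* and *Snap91* of the lower ones. *Stx4a*, *Stx5a*, *Stx8*, *Stx11*, *Snap29*, *Snap47*, *Syn1* and *Syt6*, which did not pass the threshold, held it as well. So did *Syt10* and *Syt15*, which were not tested. *Syt2* did not hold it in the window nearest its gene start. Some genes had several windows, and a match of 6 letters is not a binding site.

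Among the syntaxins of the plasma membrane, of which 6 of 7 were tested, the broadly expressed *Stx3*, which serves apical secretion in epithelia, was higher. *Stx3* had 328 and 448 normalized counts in wild-type against 1295 and 1412 in *Zfp57*-/- libraries (log2 fold change 1.80, standard error 0.22, edgeR adjusted p = 0.000265). Both *Zfp57*-/- libraries stood far above both wild-type libraries. *Stx1a*, a syntaxin of synapses, had 112 and 121 normalized counts in wild-type against 82.8 and 59.7 in *Zfp57*-/- libraries (log2 fold change -0.71, standard error 0.31, edgeR adjusted p = 0.114). *Stx2*, which acts outside neurons, had 231 and 301 normalized counts in wild-type against 172 and 202 in *Zfp57*-/- libraries (log2 fold change -0.51, standard error 0.24, edgeR adjusted p = 0.139). *Stx4a*, a syntaxin of regulated exocytosis such as that of glucose transporters, had 82.8 and 72.8 normalized counts in wild-type against 109 and 106 in *Zfp57*-/- libraries (log2 fold change 0.47, standard error 0.29, edgeR adjusted p = 0.266). For these 3 genes the genotypes did not overlap, and the differences did not pass the threshold. *Stx11*, a syntaxin of immune cells, had at most 24 counts in a library (log2 fold change 2.08, edgeR adjusted p = 0.0615), and *Stx19* had 0 counts in all libraries. Without wild-type replicate 1, *Stx1a*, *Stx2* and *Stx11* passed the threshold in the same directions, in a fit in which more genes passed over all.

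Because FPKM scales a count to the length of the exons, levels of different syntaxins can be compared on that scale. In wild-type cells *Stx3* was the most abundant plasma membrane syntaxin with 7.22 ± 1.59 FPKM (SD, n = 2), followed by *Stx2* with 6.16 ± 1.15 FPKM and *Stx1a* with 4.65 ± 0.265 FPKM, and the libraries of *Stx3* and *Stx2* stood close to each other. In *Zfp57*-/- cells *Stx3* stood at 25.2 ± 1.54 FPKM and the second, *Stx4a*, at 4.83 ± 0.104 FPKM. *Stx3* made up 27.7% and 31.9% of the summed FPKM of the 7 genes in wild-type against 64.9% and 67.3% in *Zfp57*-/- libraries. The share of *Stx1a* was 20.3% and 18.5% in wild-type against 8.90% and 6.09% in *Zfp57*-/- libraries.

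The 8 syntaxins of endosomes, Golgi and endoplasmic reticulum differed little, with *Stx17* as the only one past the threshold and log2 fold changes from -1.09 to 0.18. *Stx17*, which drives fusion of autophagosomes with lysosomes, had 275 and 184 normalized counts in wild-type against 126 and 89.5 in *Zfp57*-/- libraries (log2 fold change -1.09, standard error 0.29, edgeR adjusted p = 0.0214). Both wild-type libraries were higher, but without *Zfp57*-/- replicate 2 the call was lost (edgeR adjusted p = 0.213). *Stx5a*, of the Golgi, had 608 and 586 normalized counts in wild-type against 568 and 689 in *Zfp57*-/- libraries (log2 fold change 0.07, edgeR adjusted p = 0.809). *Stx6*, of the trans-Golgi network, had 646 and 677 normalized counts in wild-type against 455 and 471 in *Zfp57*-/- libraries (log2 fold change -0.51, edgeR adjusted p = 0.0645). *Stx7*, of late endosomes, had 653 and 813 normalized counts in wild-type against 662 and 786 in *Zfp57*-/- libraries (log2 fold change -0.02). Of these 3, the genotypes overlapped for *Stx5a* and *Stx7* and did not for *Stx6*. *Stx8*, its partner in late endosomes, had 174 and 192 normalized counts in wild-type against 182 and 165 in *Zfp57*-/- libraries (log2 fold change -0.08). *Stx12*, of recycling endosomes, had 714 and 838 normalized counts in wild-type against 611 and 678 in *Zfp57*-/- libraries (log2 fold change -0.27). *Stx16*, of the trans-Golgi network, had 544 and 374 normalized counts in wild-type against 541 and 501 in *Zfp57*-/- libraries (log2 fold change 0.18). The libraries overlapped for *Stx8* and *Stx16*, and wild-type lay higher for *Stx12*. *Stx18*, of the endoplasmic reticulum, had 294 and 346 normalized counts in wild-type against 265 and 259.8 in *Zfp57*-/- libraries (log2 fold change -0.29), with wild-type higher. Several of these outcomes changed when wild-type replicate 1 was left out, and more genes then passed over all. Without it, *Stx6*, *Stx12* and *Stx18* were lower (edgeR adjusted p = 0.000556, 0.013 and 0.0421) and *Stx16* was higher (0.0154). Without wild-type replicate 2, *Stx6* was also lower (0.00474) and the log2 fold change of *Stx16* was -0.07. In FPKM, *Stx12* was the most abundant of the 8 in both genotypes (25.9 ± 2.92 and 21.5 ± 1.58 FPKM in wild-type and *Zfp57*-/- cells) and *Stx7* the second (17.4 ± 2.7 and 17.2 ± 2.09 FPKM).

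In the SNAP-25 family the neuronal *Snap25* fell and the ubiquitous *Snap23* rose. *Snap25*, the target membrane SNARE of synapses, had 275 and 323 normalized counts in wild-type against 25.3 and 23.1 in *Zfp57*-/- libraries (log2 fold change -3.63, standard error 0.28, edgeR adjusted p = 1.85e-05). *Snap23*, its counterpart in non-neuronal cells, had 458 and 593 normalized counts in wild-type against 787 and 823 in *Zfp57*-/- libraries (log2 fold change 0.61, standard error 0.20, edgeR adjusted p = 0.0474). The genotypes were apart for both genes, by far more for *Snap25*. The call on *Snap23* was close to the threshold, and it was lost with DESeq2's test (0.0621, the adjusted p of DESeq2), with DESeq2's size factors (edgeR adjusted p = 0.0507) and without either *Zfp57*-/- library (0.269 without replicate 1 and 0.325 without replicate 2). *Snap29*, a SNARE of several intracellular membranes, had 216 and 281 normalized counts in wild-type against 184 and 185 in *Zfp57*-/- libraries (log2 fold change -0.43, edgeR adjusted p = 0.197). *Snap47*, a related protein of intracellular membranes, had 332 and 444 normalized counts in wild-type against 506 and 419 in *Zfp57*-/- libraries (log2 fold change 0.25, edgeR adjusted p = 0.436). Wild-type lay higher for *Snap29*, and the libraries overlapped for *Snap47*. Without wild-type replicate 1 *Snap29* passed the threshold as lower, and without wild-type replicate 2 *Snap47* passed as higher. More genes passed over all in both of these fits. Of the summed FPKM of *Snap25* and *Snap23*, *Snap25* took 27.5% and 25.6% in wild-type against 1.99% and 1.74% in *Zfp57*-/- libraries.

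Among the 7 VAMPs, 5 were tested, and *Vamp8* rose while *Vamp2* and *Vamp4* fell. *Vamp8*, an endosomal VAMP that also serves secretion in exocrine and epithelial cells, had 121 and 171 normalized counts in wild-type against 363 and 409.9 in *Zfp57*-/- libraries (log2 fold change 1.40, standard error 0.24, edgeR adjusted p = 0.0022). *Vamp2*, the synaptobrevin of most central synapses, had 138 and 145 normalized counts in wild-type against 79.8 and 58.7 in *Zfp57*-/- libraries (log2 fold change -1.03, standard error 0.29, edgeR adjusted p = 0.0278). *Vamp4*, of the trans-Golgi network, had 333 and 249.8 normalized counts in wild-type against 152 and 149 in *Zfp57*-/- libraries (log2 fold change -0.95, standard error 0.24, edgeR adjusted p = 0.0152). Each of the 3 separated the genotypes. The calls on *Vamp2* and *Vamp4* rested on both *Zfp57*-/- libraries: without replicate 1 the edgeR adjusted p was 0.118 and 0.137, and without replicate 2 it was 0.338 and 0.14. *Vamp3*, the ubiquitous cellubrevin, had 661 and 945 normalized counts in wild-type against 655 and 714 in *Zfp57*-/- libraries (log2 fold change -0.23), with overlapping libraries. Without wild-type replicate 1 it passed the threshold as lower, in a fit in which more genes passed over all. Its log2 fold change without wild-type replicate 2 was 0.05. *Vamp1*, a synaptobrevin of hindbrain and spinal cord, had 62 and 35 counts in wild-type against 61 and 34 in *Zfp57*-/- libraries (log2 fold change -0.13, edgeR adjusted p = 0.881), and in each genotype replicate 1 was the higher. *Vamp5* had 2 counts in every library and *Vamp7* had 0, and neither was tested. *Vamp7* is annotated on the scaffold GL456233.1 and not on a chromosome, and only unique alignments were counted. Its 0 counts are therefore no measure of its expression, and the ranking and shares of the family take it as 0. On the FPKM scale *Vamp3* was the most abundant of the family in both genotypes (29.5 ± 7.4 and 25.2 ± 1.54 FPKM in wild-type and *Zfp57*-/- cells). *Vamp8* made up 13.2% and 14.8% of the family's FPKM in wild-type against 35.3% and 37.2% in *Zfp57*-/- libraries, and *Vamp2* 9.07% and 7.63% against 4.71% and 3.23%.

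**Figure D2:**
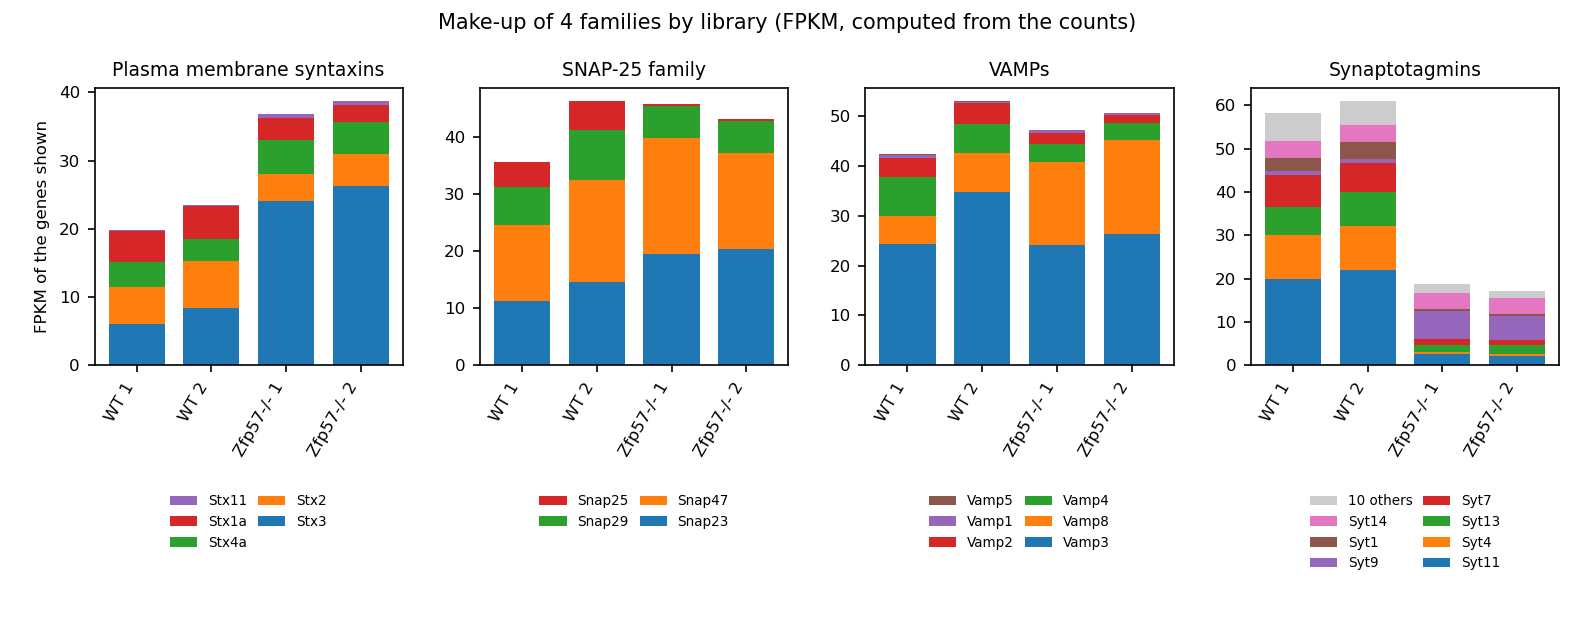
FPKM of genes of 4 families in each library, stacked by gene, each panel with its own axis from 0 and with WT for wild-type. *Stx3*, *Snap23* and *Vamp8* took a larger part of their families in both Zfp57-/- libraries, and the summed synaptotagmin level was 58.2 and 60.9 FPKM in wild-type against 18.8 and 17.1 FPKM in Zfp57-/- libraries.

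The synaptotagmins lost most of their summed level, and 8 of the 14 tested were lower and 1 higher in *Zfp57*-/- cells. *Syt1*, the calcium sensor of fast synchronous release in forebrain neurons, had 239 and 319 normalized counts in wild-type against 38.4 and 29.8 in *Zfp57*-/- libraries (log2 fold change -3.03, standard error 0.30, edgeR adjusted p = 7.4e-05). *Syt2*, the sensor of fast release in hindbrain, had 115 and 98.8 normalized counts in wild-type against 10.1 and 6.73 in *Zfp57*-/- libraries (log2 fold change -3.65, standard error 0.44, edgeR adjusted p = 0.000282). *Syt7*, a sensor of slow and asynchronous release, had 509 and 467 normalized counts in wild-type against 107 and 89.5 in *Zfp57*-/- libraries (log2 fold change -2.31, standard error 0.22, edgeR adjusted p = 6.83e-05). In all 3 of these calcium sensors the lower wild-type library stood several-fold above the higher *Zfp57*-/- library. *Syt9*, a calcium sensor of limbic neurons and secretory cells, had 29.1 and 29.7 normalized counts in wild-type against 238 and 209 in *Zfp57*-/- libraries (log2 fold change 2.92, standard error 0.29, edgeR adjusted p = 7.95e-05). It was the only synaptotagmin past the threshold upwards, with both *Zfp57*-/- libraries far above the wild-type ones. *Syt5*, another calcium sensor, had 31 and 34 counts in wild-type against 9 and 12 in *Zfp57*-/- libraries (log2 fold change -1.68, edgeR adjusted p = 0.0508). It passed the threshold as lower when wild-type replicate 1 or replicate 2 was left out, in fits in which more genes passed over all.

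Of the other synaptotagmins, *Syt4*, *Syt11*, *Syt13*, *Syt16* and *Syt17* were lower. *Syt4*, which lacks calcium binding in its first C2 domain and sits on dense core vesicles, had 372 and 372 normalized counts in wild-type against 9.09 and 15.4 in *Zfp57*-/- libraries (log2 fold change -4.90, standard error 0.32, edgeR adjusted p = 7.21e-06). *Syt11*, its close relative in vesicle recycling, had 974 and 1079 normalized counts in wild-type against 134 and 111 in *Zfp57*-/- libraries (log2 fold change -3.07, standard error 0.21, edgeR adjusted p = 1.16e-05). *Syt13*, an atypical member without calcium binding, had 229.6 and 273 normalized counts in wild-type against 57.6 and 68.3 in *Zfp57*-/- libraries (log2 fold change -2.00, standard error 0.26, edgeR adjusted p = 0.000452). The genotypes were well apart for all of these. *Syt14*, which also lacks calcium binding, had 443 and 434 normalized counts in wild-type against 414 and 408 in *Zfp57*-/- libraries (log2 fold change -0.09, edgeR adjusted p = 0.752), the 4 libraries lying within a narrow range. Below 100 normalized counts, *Syt17* was lower with 76 and 82 counts in wild-type against 25 and 8 in *Zfp57*-/- libraries (log2 fold change -2.30, standard error 0.54, edgeR adjusted p = 0.0115), but not without *Zfp57*-/- replicate 2 (edgeR adjusted p = 0.117). *Syt16* was lower as well, with 16 and 19 counts in wild-type against 0 and 1 in *Zfp57*-/- libraries. Its wild-type to *Zfp57*-/- ratio was 36.0 with a 95% interval from 6.06 to 1463 that covers counting error only, and without *Zfp57*-/- replicate 1 the edgeR adjusted p was 0.0765 against 0.00888 with all libraries. *Syt3*, *Syt6* and *Syt12* had at most 20 counts in a library and log2 fold changes of 0.06, -1.05 and 1.58, none past the threshold. *Syt8*, *Syt10* and *Syt15* had at most 3 counts in a library and were not tested.

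On the FPKM scale *Syt11* was the most abundant synaptotagmin of wild-type cells with 21 ± 1.51 FPKM (SD, n = 2). *Syt4* followed with 10.2 ± 0.00368 FPKM, and *Syt7* and *Syt13*, with 7.13 ± 0.435 FPKM and 7.1 ± 0.87 FPKM, did not differ beyond their spread. In *Zfp57*-/- cells *Syt9* came first with 5.97 ± 0.56 FPKM, *Syt14* second with 3.66 ± 0.0397 FPKM followed by *Syt11* with 2.5 ± 0.343 FPKM. *Syt9* took 1.34% and 1.30% of the summed synaptotagmin FPKM in wild-type against 33.8% and 32.6% in *Zfp57*-/- libraries, and *Syt4* 17.4% and 16.7% against 1.32% and 2.46%. *Syt14* took 6.78% and 6.35% against 19.6% and 21.2%, a larger share at a level that had not passed the test.

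**Figure D3:**
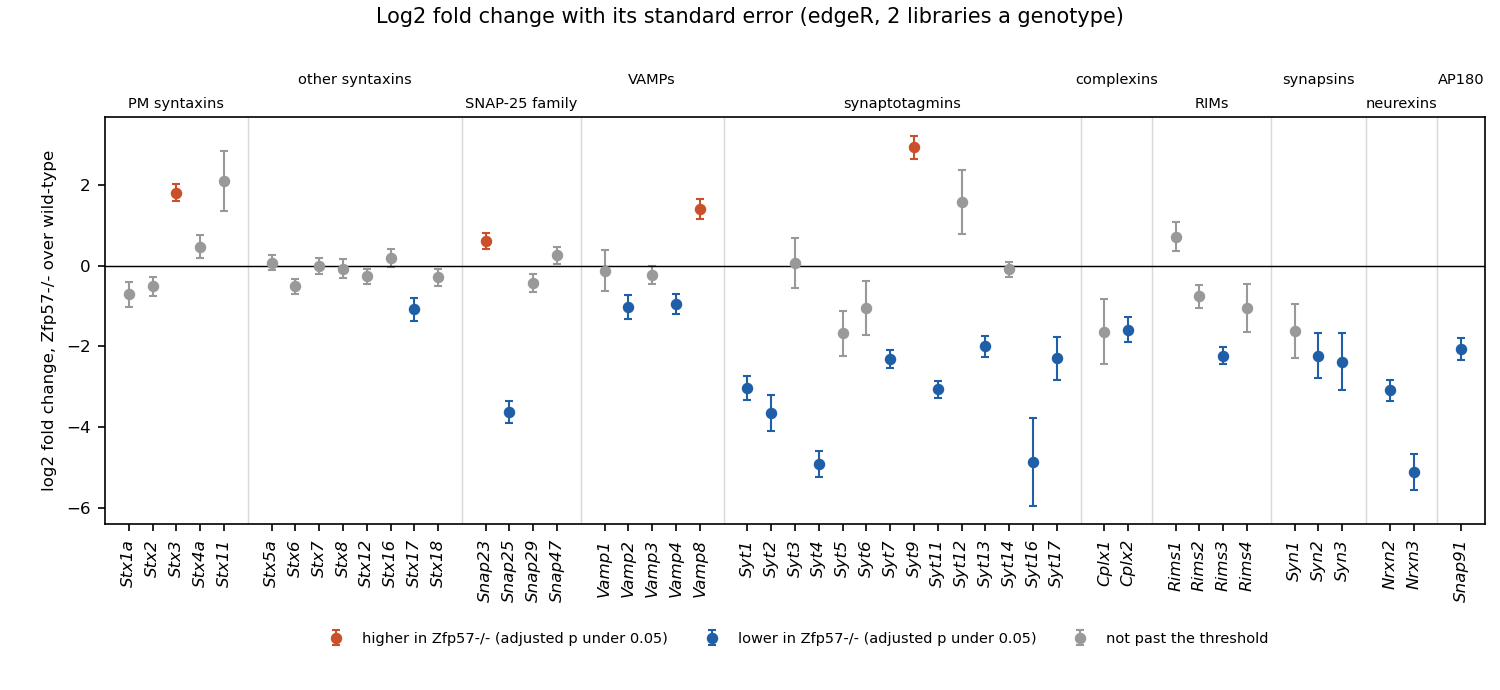
Log2 fold change (Zfp57-/- over wild-type) with its standard error for 48 of the 50 tested genes, blue for the 19 lower, orange for the 4 higher and grey for the 25 that did not pass an adjusted p of 0.05. *Nrxn3* and *Syt4* lie lowest, and the syntaxins of inner membranes lie close to 0.

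Of the complexins, *Cplx2* was lower. *Cplx2*, the main complexin of excitatory forebrain neurons, had 254 and 252 normalized counts in wild-type against 60.6 and 108 in *Zfp57*-/- libraries (log2 fold change -1.59, standard error 0.30, edgeR adjusted p = 0.00375). The genotypes did not overlap, and without *Zfp57*-/- replicate 1, the lower of the pair, the edgeR adjusted p was 0.0542. *Cplx1*, its paralog of inhibitory and hindbrain neurons, had 11 and 20 counts in wild-type against 2 and 8 in *Zfp57*-/- libraries and did not pass the threshold (edgeR adjusted p = 0.165). *Cplx3* and *Cplx4*, the complexins of retinal ribbon synapses, had at most 2 counts in a library.

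Among the RIMs only *Rims3* passed the threshold. *Rims3*, a short RIM with the C-terminal C2 domain alone, had 721 and 625 normalized counts in wild-type against 144 and 141 in *Zfp57*-/- libraries (log2 fold change -2.23, standard error 0.21, edgeR adjusted p = 5.37e-05). *Rims2*, a full-length RIM that binds Rab3 and calcium channels, had 469 and 293 normalized counts in wild-type against 266 and 183 in *Zfp57*-/- libraries (log2 fold change -0.76, standard error 0.28, edgeR adjusted p = 0.0698). *Rims3* separated the genotypes clearly, while for *Rims2* the lower wild-type library stood near the higher *Zfp57*-/- library. *Rims2* was lower without wild-type replicate 2, in a fit in which more genes passed over all. *Rims1*, the other full-length RIM, had 38 and 70 counts in wild-type against 99 and 80 in *Zfp57*-/- libraries (log2 fold change 0.71). It passed the threshold as higher in that same fit without wild-type replicate 2. *Rims4*, the second short RIM, had 20 and 89 counts in wild-type against 24 and 27 in *Zfp57*-/- libraries, with wild-type replicate 2 apart from the other 3 libraries. Its log2 fold change was -1.05 over all libraries, -1.69 without wild-type replicate 1 and 0.10 without wild-type replicate 2. In FPKM, *Rims3* was first in wild-type cells with 8.97 ± 0.914 FPKM, and in *Zfp57*-/- cells *Rims2* and *Rims3* had 2.29 ± 0.6 FPKM and 1.91 ± 0.0287 FPKM, which did not differ beyond their spread.

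The synapsins, phosphoproteins that hold vesicles in the reserve pool, were low in all libraries, with at most 59 counts. *Syn2* had 32 and 47 counts in wild-type against 8 and 9 in *Zfp57*-/- libraries (log2 fold change -2.23, standard error 0.55, edgeR adjusted p = 0.0149). *Syn3*, the synapsin of immature neurons, had 59 and 46 counts in wild-type against 18 and 3 in *Zfp57*-/- libraries (log2 fold change -2.38, standard error 0.72, edgeR adjusted p = 0.034). Both were lower, and both calls rested on few counts. Without *Zfp57*-/- replicate 1 the edgeR adjusted p of *Syn2* was 0.155, and without replicate 2 it was 0.136 for *Syn2* and 0.227 for *Syn3*. *Syn1*, on the X chromosome, had 22 and 40 counts in wild-type against 15 and 5 in *Zfp57*-/- libraries (log2 fold change -1.63, edgeR adjusted p = 0.097). It passed the threshold as lower without wild-type replicate 1, in a fit in which more genes passed over all.

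Neurexins are the presynaptic receptors of neuroligins and cerebellins, and *Nrxn2* and *Nrxn3* were lower in *Zfp57*-/- cells. *Nrxn2* had 329.9 and 269.6 normalized counts in wild-type against 34.4 and 35.6 in *Zfp57*-/- libraries (log2 fold change -3.09, standard error 0.27, edgeR adjusted p = 3.79e-05). *Nrxn3* had 241 and 141 normalized counts in wild-type against 5.05 and 5.77 in *Zfp57*-/- libraries (log2 fold change -5.10, standard error 0.45, edgeR adjusted p = 3.96e-05). In both the higher *Zfp57*-/- library stood far below the lower wild-type library, and wild-type replicate 1 was above replicate 2. *Snap91* encodes AP180, a clathrin adaptor that retrieves VAMP2 at nerve terminals and is not a SNARE. It had 371 and 283 normalized counts in wild-type against 92.9 and 63.5 in *Zfp57*-/- libraries (log2 fold change -2.06, standard error 0.28, edgeR adjusted p = 0.00053), with no overlap.

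The other genes of the release machinery were taken from a list of 76 partners of the genes above, all of which were tested. In *Zfp57*-/- cells 32 were lower, 2 higher and 42 did not pass, a share of 42.1% lower against 14.6% of all genes, and the median log2 fold change was -1.08. The 2 lower genes with the smallest adjusted p were *Slc17a6* and *Cadps*. *Slc17a6*, the vesicular glutamate transporter VGLUT2, had 386 and 341 counts in wild-type against 1 and 1 in *Zfp57*-/- libraries, a wild-type to *Zfp57*-/- ratio of 374 with a 95% counting interval from 103 to 3096. *Cadps*, which primes dense core vesicles, had 437 and 516 normalized counts in wild-type against 31.3 and 36.6 in *Zfp57*-/- libraries (log2 fold change -3.81, standard error 0.26, edgeR adjusted p = 9.21e-06). The 2 higher genes were *Rab3gap1*, a regulator of Rab3 (log2 fold change 0.93, edgeR adjusted p = 0.00643), and *Stxbp2*, the Munc18 protein that partners *Stx3* in epithelial and blood cells (0.90, 0.00855). Both calls upwards were lost when either *Zfp57*-/- library was left out, in fits in which fewer genes passed over all. By role, 7 of 10 neurexin ligands were lower with a median log2 fold change of -3.27, 5 of 8 genes of the Rab3 module with -1.55, 5 of 9 active zone scaffold genes with -1.60 and 7 of 14 genes of priming and SNARE regulation with -1.31. Fewer of the others passed, with 3 of 12 genes of vesicle recycling, 2 of 11 vesicle membrane proteins, 2 of 7 transmitter transporters and 1 of 5 genes of SNARE disassembly lower.

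The 12 SNAREs of the endoplasmic reticulum, Golgi and endosomes outside these families had a median log2 fold change of 0.17. One of them passed the threshold, *Sec22c*, at -0.86 (edgeR adjusted p = 0.0255), a share of 8.33% lower against 14.6% of all genes.

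The allele-specific counts separate reads of the maternal JF1 and the paternal B6 chromosome at positions that differ between the strains, and the allelic ratio is the share of JF1 reads. Of the 57 members in this table, 41 autosomal genes reached 10 normalized allelic counts in each wild-type library and entered edgeR's test, with 24 to 1063 allelic reads in wild-type and 4 to 948 in *Zfp57*-/- cells. Their median ratio was 0.488 (wild-type) and 0.51 (*Zfp57*-/-), against 0.498 and 0.489 over all 10977 genes tested. In wild-type cells 38 of the 41 had a mean ratio between 0.33 and 0.67. An allelic bias, with a ratio outside these limits and an adjusted p under 0.05, was found for *Stx17*, *Vamp1* and *Syt17*, 7.32% of the members tested against 11.9% of all genes. A genotype-by-allele difference was found for *Stx17*, *Syt4*, *Syt6* and *Syt17*, or 9.76% against 14.5% of all genes. *Snap23* and *Syt2* had no read assigned to an allele in any library, although their bulk counts reached 855 and 110. *Syn1* had 28 allelic reads, all of them JF1, and it lies on the X chromosome, which male cells inherit from the mother.

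**Figure D4:**
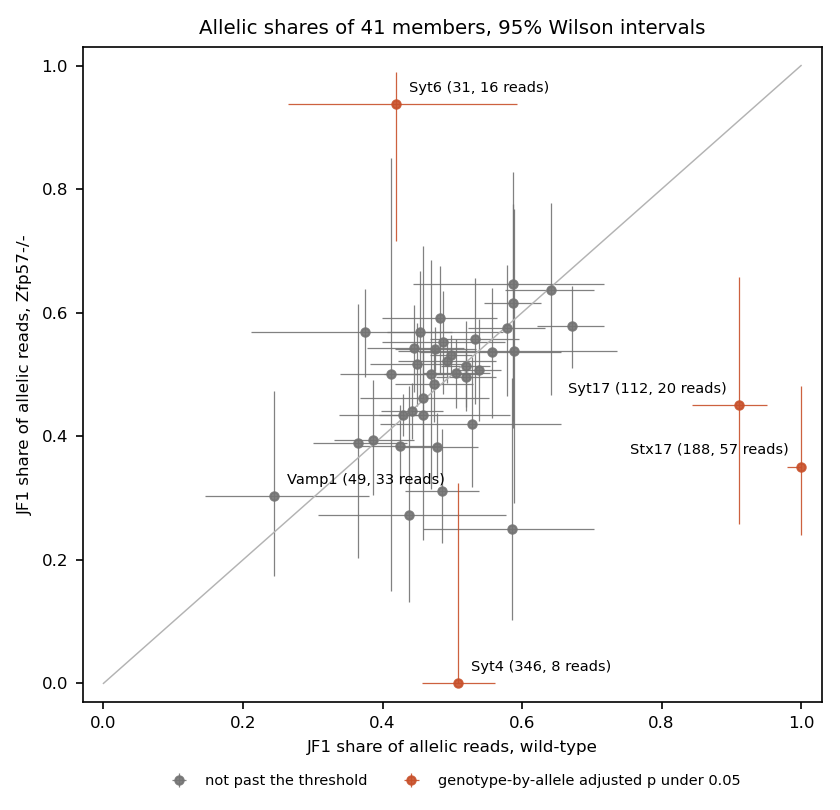
Share of JF1 reads in the pooled Zfp57-/- (vertical axis) and wild-type (horizontal axis) libraries for the 41 tested genes, with 95% Wilson intervals for counting error and a diagonal line of equal shares. Orange points passed the genotype-by-allele test, and *Stx17* and *Syt17* stand apart at the right with shares of 1 and 0.911 in wild-type cells.

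*Stx17* (chr4:48124915-48186507 in GRCm38) was read from the JF1 allele alone in wild-type cells. All 98 and 90 allelic reads of the wild-type libraries were JF1, which leaves a B6 share of at most 0.02 by the 95% Wilson interval, whereas the *Zfp57*-/- libraries had 11 JF1 and 21 B6 reads, and 9 and 16. The allelic ratios were 1 and 1 in wild-type against 0.344 and 0.36 in *Zfp57*-/- libraries, and the edgeR adjusted p was 4.21e-20 for the wild-type bias and 6.96e-15 for the difference between genotypes. JF1 reads of *Stx17*, scaled to library size, were lower by 3.30 on the log2 scale in *Zfp57*-/- cells, and B6 reads were present there only. The lower total described above thus held fewer JF1 and more B6 reads. The genes on both sides showed the same pattern. *Nr4a3*, whose start lies 79.8 kb before that of *Stx17*, had 93 of 93 JF1 reads in wild-type and 9 of 29 in *Zfp57*-/- cells, and *Erp44*, 68.4 kb after it, had 557 of 557 and 239 of 500. Further out, *Sec61b*, 650.3 kb before, had a wild-type share of 0.481, and *Invs*, 154.8 kb after, had 0.604. The run of genes with a wild-type share of at least 0.9 thus held 3 genes within 234.4 kb, by a limit set after the values were seen.

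*Syt17* (chr7:118380717-118448222) had mostly JF1 reads in wild-type cells, with ratios of 0.912 and 0.909 in wild-type against 0.4 and 0.6 in *Zfp57*-/- libraries (edgeR adjusted p = 8.6e-09 for the wild-type bias and 0.0021 for the difference). These rested on 112 wild-type and 20 *Zfp57*-/- reads. The difference between genotypes was lost without wild-type replicate 1 (adjusted p = 0.0508), without *Zfp57*-/- replicate 1 (0.355) and with DESeq2 (0.0732). JF1 reads fell by 3.56 on the log2 scale, and B6 reads stood at 0.09. *Syt17* lay inside a run of 17 genes over 1080 kb, from *Rps15a* to *Gpr139*, with wild-type shares of at least 0.911, of which 13 had JF1 reads only. *Gpr139* was the last gene with enough reads in the range searched, so the end of the run on that side was not seen. In *Zfp57*-/- cells the median share of the run was 0.479. *Syt17* had the lowest wild-type share of the run, with 5 B6 reads in each wild-type library. Neither gene thus stood alone among its neighbours in its ratio, and both lower totals came with a lower JF1 level and no lower B6 level. Read counts cannot tell a change in expression of an allele from a difference in DNA between the lines, and neither was tested.

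**Figure D5:**
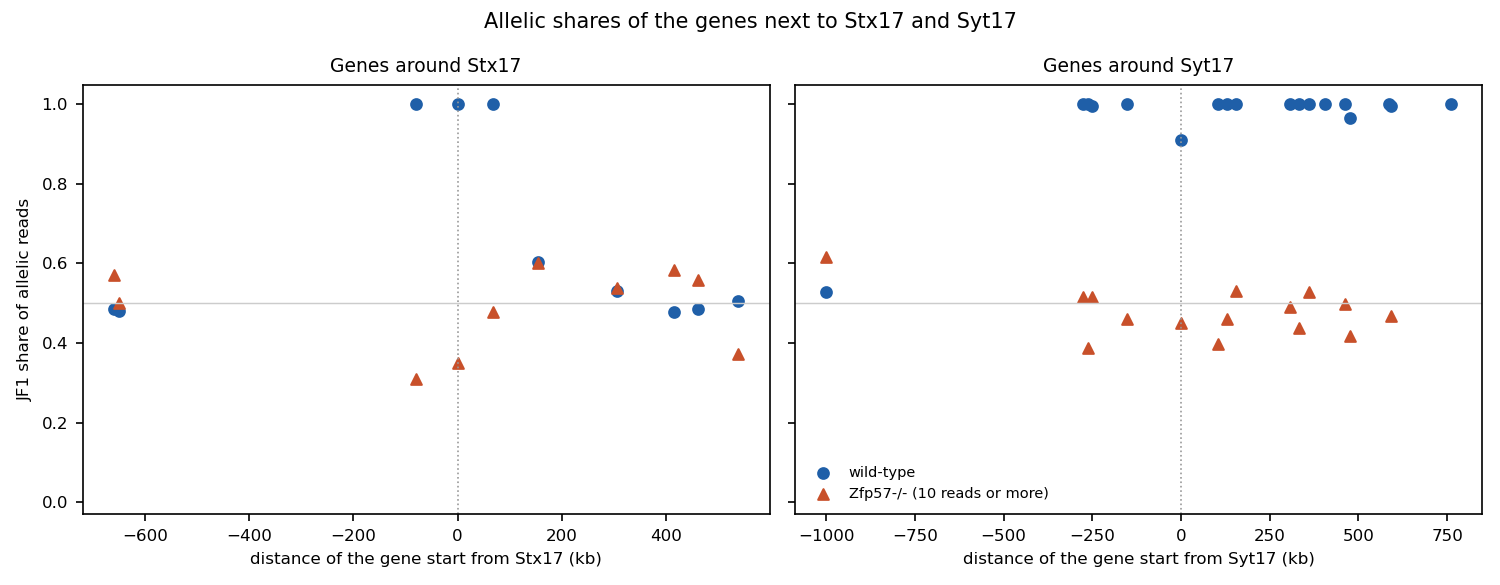
Share of JF1 reads of the genes around Stx17 (left) and Syt17 (right) in wild-type (blue circles) and Zfp57-/- cells (orange triangles, 10 or more reads), against the distance of the gene start in kb. In wild-type cells 3 genes around *Stx17* and 17 around *Syt17* lie at 0.91 or more, while the Zfp57-/- shares of the same genes lie between 0.31 and 0.53 where 10 or more reads were counted.

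The other allelic calls rested on few reads. *Syt4* had ratios of 0.564 and 0.463 in the wild-type libraries and 0 of 2 and 0 of 6 JF1 reads in the *Zfp57*-/- libraries, which allows a share of up to 0.324 by the Wilson interval (edgeR adjusted p = 0.0168 for the difference). *Syt6* had ratios of 0.529 and 0.286 in wild-type against 1 and 0.857 in *Zfp57*-/- libraries, with 16 reads in *Zfp57*-/- cells (edgeR adjusted p = 0.0317). The call on *Syt6* was lost when either wild-type library or *Zfp57*-/- replicate 1 was left out, with DESeq2 and with a block on the replicate number, and that on *Syt4* was lost with DESeq2 and without wild-type replicate 1 or *Zfp57*-/- replicate 2 (edgeR adjusted p = 0.0508 and 0.303 for the left-out libraries). *Vamp1* was biased towards B6 in wild-type cells, with ratios of 0.226 and 0.278 over 49 reads (edgeR adjusted p = 0.035). The call was lost without either wild-type library, with DESeq2 and with the block. The *Zfp57*-/- libraries had ratios of 0.235 and 0.375 over 33 reads, the second within the limits, and a bias in these cells was not tested. A milder imbalance, with an adjusted p under 0.05 at a ratio within the limits or beside them, was found in wild-type cells for 6 genes, among them *Stx7*, *Snap25*, *Syt1*, *Cplx2* and *Rims2*, which together with the 3 biased genes made 9 of 41 against 23.6% of all genes. Among them *Rims2* had ratios of 0.687 and 0.652 in wild-type against 0.504 and 0.663 in *Zfp57*-/- libraries and was counted as biased without wild-type replicate 2.

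Most of the lower genes were lower on both alleles. Of the 16 lower genes that entered the allele test and had 10 or more allelic reads in each genotype, 14 had a negative log2 change of the scaled reads of both alleles. The exceptions were *Stx17* and *Syt17*. The 3 higher genes in the allele test had a positive change of both. The shares among all lower or higher genes were not computed. Allelic reads come from the same libraries as the bulk calls and are not independent support for them. *Vamp2*, which was not in the allele test, had 14 and 10 allelic reads in wild-type and *Zfp57*-/- cells and changes in opposite directions, -2.07 for B6 and 0.42 for JF1. *Snap25* changed by -3.51 for B6 and -3.34 for JF1 and *Syt1* by -2.71 for B6 and -2.73 for JF1. *Syt11* changed by -2.71 for B6 and -2.88 for JF1 and *Rims3* by -2.16 for B6 and -2.19 for JF1. In these 4 the alleles moved alike. Leaving out genes with a genotype-by-allele call favours small differences and cannot show that the alleles agree. Over the 10 lower genes that remained with at least 20 *Zfp57*-/- reads, the alleles differed by a median of 0.17 in size. The largest difference among these 10 was that of *Snap91*, -1.51 for B6 and -2.53 for JF1, whose genotype-by-allele contrast did not pass the threshold (edgeR adjusted p = 0.0822). *Syn3*, left out with 16 *Zfp57*-/- reads, differed by more, at -1.02 for B6 and -3.21 for JF1. Of the higher genes, *Stx3* changed by 1.88 for B6 and 2.05 for JF1, *Vamp8* by 1.21 for B6 and 1.63 for JF1 and *Syt9* by 2.32 for B6 and 3.56 for JF1. On chromosome 1 the median ratio of all genes stood at 0.49 for wild-type and 0.62 for *Zfp57*-/- cells. Of the 4 members on it with allelic reads, *Stx6*, *Vamp4* and *Syt14* lay among genes with median *Zfp57*-/- ratios of 0.492, 0.467 and 0.512 over the 15 nearest, and had mean *Zfp57*-/- ratios of 0.59, 0.559 and 0.441 themselves. *Rims1* lay among genes with a median of 0.683, and its *Zfp57*-/- libraries had ratios of 0.306 and 0.594.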

How the data were processed

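Stranded paired-end libraries were made from ribo-depleted total RNA of day 12 cells. The authors trimmed reads with Trimmomatic 0.36, aligned them with STAR 2.5.4a to GRCm38, kept unique alignments and deposited raw counts of fragments per gene of GENCODE vM20 from featureCounts 1.6.0. For the second table, the authors assigned reads to JF1 or B6 with SNPsplit on a masked genome and deposited raw counts per allele.

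Symbols came from GENCODE and a name table for 98.6% of the gene IDs. The genes and lists described were chosen with earlier results of these data known. Genes with more than 8 counts over the 4 libraries were compared with edgeR 4.0.16 (R 4.3.3; TMM, robust quasi-likelihood, Benjamini-Hochberg adjustment). Normalized counts are counts scaled to the mean effective library size, and FPKM were computed from the counts and exon lengths. In the allele fit, each library had its own term and each genotype its own allele term. Members with a mean of at least 100 normalized counts in 1 genotype are given by library, those past the threshold below it by name, and the rest by range. Of other lists, the 2 strongest calls by adjusted p are named per direction. Replicates differed by more than counting noise, with a chi-square per degree of freedom of 34.9 for wild-type and 7.28 for *Zfp57*-/- libraries. Wilson and exact binomial intervals at 95% cover counting error only. The alternatives were DESeq2 1.42.0, other scalings and filters, a gene-length correction, a replicate block, stricter thresholds and each library left out. Some results on single genes are not reported here. The main bulk fit, its replicate block, DESeq2 and gene-length alternatives, and the genotype-by-allele test were also run on simulated counts. The other alternatives and the fits with a library left out were not.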

Additional observations from a re-analysis of the deposited data

Results flagged for a closer look

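For 4 genes the difference between the alleles itself differed between the genotypes in edgeR's genotype-by-allele test. The mean allelic ratio was lower in *Zfp57*-/- than in wild-type cells by 0.648 for *Stx17* (a difference of -0.648), by 0.514 for *Syt4* (-0.514) and by 0.411 for *Syt17* (-0.411), and it was higher by 0.521 for *Syt6*. *Stx17* was the one of the 4 that also passed with DESeq2 (1 gene), and it kept its call with each library left out. It also passed when every library had to hold 10 allelic reads, a limit that *Syt4*, *Syt6* and *Syt17* did not reach, so that they were not tested. The ratios of *Syt4*, *Syt6* and *Syt17* in *Zfp57*-/- cells rested on 8, 16 and 20 reads. With 2 libraries in each group, no library could be set apart from its group.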

How the results depend on the processing

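All 25 genes past the threshold kept their direction under every alternative, and 24 kept their call in every fit with all 4 libraries and a threshold of 0.05, the exception being *Snap23*. When a library was left out, 16 kept their call in all 4 fits. Over all genes, more passed in the fits without a wild-type library than with all 4, and fewer in those without a *Zfp57*-/- library. Calls gained or lost in these fits are therefore not particular to the members. Such fits leave 1 library in a genotype, which is assumed to vary like the others. Counts of members and release partners past the threshold in each of these fits are therefore not given. Higher release partners numbered 5 with a replicate block and gene-length correction and 0 with a log2 fold change of at least 1. Genotype-by-allele differences numbered 1 with DESeq2. They also numbered 1 when every library had to hold 10 allelic reads, a limit that left *Syt4*, *Syt6* and *Syt17* out of the test.

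Same-numbered libraries share a number and no stated batch, and their deviations correlated at 0.145 over 11736 genes with 2 pairs. With the replicate block, 25 members were lower and 5 higher, 36 release partners lower and 2 higher, and 2 members had an allelic bias and 3 a genotype-by-allele difference; over all genes 6984 passed against 5522. At an adjusted p of 0.01, 15 members were lower and 3 higher, and 2901 genes passed over all. The share of higher calls over all genes was 47.2%.

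The direction turned for 9 of the 25 genes that did not pass, none past the threshold in the turned direction. With a gene-length correction the log2 fold changes became 0.00833 for *Stx7*, 0.0587 for *Stx8*, 0.155 for *Vamp1*, -0.0155 for *Syt3* and 0.219 for *Syt14*, and with the block added 0.013, 0.0601, 0.159, -0.0601 and 0.223. With each library left out in turn they ranged from -0.648 to 0.552 for *Vamp1*, -0.195 to 0.147 for *Stx7*, -0.0663 to 0.452 for *Stx16*, -0.0651 to 0.214 for *Stx5a*, -0.493 to 0.0475 for *Vamp3*, -1.69 to 0.104 for *Rims4* and -0.386 to 0.414 for *Syt3*. Depth limits the synapsins, complexin 1 and the rarer synaptotagmins, and the allelic ratios of lowered genes.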
